A study of Mus musculus with 5 samples.

Results

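The proteasome genes of mouse pancreatic cancer cells were compared between cells sorted for high and for low autophagy flux. The genes were taken by symbol alone: every row of the expression table whose name starts with Psma, Psmb, Psmc, Psmd, Psme, Psmf or Psmg and a digit, without Psmb8 and Psmb9. The rule took 52 of 52459 rows. Of these, 46 belong to the proteasome or its helpers. They include 7 subunits of the alpha ring, 7 of the beta ring, 3 alternative core subunits and 6 ATPases. There are also 3 non-ATPase subunits of the base, 8 subunits of the lid, 5 activators and inhibitors and 7 assembly chaperones. The other 6 are 4 pseudogenes, Psme2b (a near copy of Psme2) and Psmc3ip, a recombination factor that shares the prefix without being a subunit. The cells were of the HY15549 line (C57BL/6 background), carried the autophagy flux reporter GFP-LC3-RFP and grew as organoids in Matrigel. After dissociation they were sorted by the ratio of GFP to RFP into the groups AThi (autophagy-high, 2 libraries) and ATlo (autophagy-low, 3 libraries). Both groups thus share the line, the reporter and the sort, and no label gives an unsorted or untreated control. Everything rests on 1 cell line, and the labels number the libraries as replicates without naming cultures or sort days. A p-value here therefore speaks only of the spread among these 5 libraries, part of which may be technical.

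The proteasome degrades proteins that carry ubiquitin chains, and autophagy is the other main route by which cells break down their own proteins. Its 20S core is a barrel of stacked alpha and beta rings, in which Psmb5, Psmb6 and Psmb7 encode the proteolytic subunits. The 19S regulatory particle caps the barrel: its ATPases unfold substrates, and its base and lid bind and remove ubiquitin. Core and cap together form the 26S proteasome. The transcription factor NFE2L1 (also called NRF1) is known to raise proteasome genes together through antioxidant response elements in their promoters when proteasome activity is short.

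Promoter sequence is shown for 5 genes that stand for the main patterns: Psmb5 and Psmb6 as proteolytic subunits, Psmc4 and Psmd2 as 19S subunits with large falls, and Psmg4 as a gene that did not pass the test. Each run is the 150 bases before the start site in RefSeq (build GRCm38.p6), 5′ to 3′ on the gene's own strand. Capitals mark matches, on either strand, to 1 of 5 motifs. They are the core of the antioxidant response element (TGACNNNGC), the CCAAT box, the core of ETS factor sites (CCGGAA), the core of the nuclear respiratory factor element (GCATGCGC) and the E-box (CACGTG). Psmb5 lies at chr14:54617996-54618145 (minus strand), Psmb6 at chr11:70525207-70525356 (plus), Psmd2 at chr16:20651502-20651651 (plus), Psmc4 at chr7:28050093-28050242 (minus) and Psmg4 at chr13:34162814-34162963 (plus).
Psmb5: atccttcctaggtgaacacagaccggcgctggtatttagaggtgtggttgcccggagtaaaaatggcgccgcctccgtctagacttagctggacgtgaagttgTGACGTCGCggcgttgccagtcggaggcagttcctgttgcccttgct
Psmb6: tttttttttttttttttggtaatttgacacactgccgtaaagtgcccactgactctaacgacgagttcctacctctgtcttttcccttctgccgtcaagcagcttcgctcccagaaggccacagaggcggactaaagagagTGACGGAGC
Psmd2: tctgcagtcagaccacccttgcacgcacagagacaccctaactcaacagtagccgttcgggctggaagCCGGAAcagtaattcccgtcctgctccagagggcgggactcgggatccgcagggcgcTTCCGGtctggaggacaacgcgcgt
Psmc4: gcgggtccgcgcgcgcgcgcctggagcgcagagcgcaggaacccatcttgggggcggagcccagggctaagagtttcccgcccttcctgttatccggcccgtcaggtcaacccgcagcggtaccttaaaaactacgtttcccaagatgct
Psmg4: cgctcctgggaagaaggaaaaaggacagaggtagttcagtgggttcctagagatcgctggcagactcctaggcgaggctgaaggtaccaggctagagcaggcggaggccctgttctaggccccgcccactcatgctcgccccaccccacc
The antioxidant response core begins 47 bases before the start in Psmb5 and 9 bases before it in Psmb6. Psmd2 holds the ETS core at 82 and 25 bases, and the runs of Psmc4 and Psmg4 hold none of the 5 motifs. These distances depend on the RefSeq start. In the GENCODE annotation, 27 bases of the Psmb5 run and 9 of the Psmc4 run lie in exons. Psmb6 starts there at chr11:70525367, downstream of the run shown.

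Over the 250 bases before the start, 40 of the 52 genes had a RefSeq promoter, 25 of them 26S subunits. The antioxidant response core was found in 4 of these 25 (Psmb5, Psmb6, Psmc6 and Psmd12), or 16.0%, against 1204 of the 8587 tested genes with a promoter and 11.5% of all 27025 genes with one. The ETS core was found in 12 of 25, or 48.0%, against 27.3% of tested genes and 13.6% of all. The CCAAT box was found in 10 of 25 against 40.9% of tested and 37.5% of all genes. For the nuclear respiratory factor core these were 2 of 25, 5.4% and 2.6%, and for the E-box 1 of 25, 10.2% and 6.9%. Matches to different motifs were counted separately and may overlap. The 26S subunits with the antioxidant response core had a median log2 fold change of -0.63, and the 21 without it -0.76. For the ETS core these medians were -0.73 and -0.77, and for the CCAAT box -0.72 and -0.74.

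The unit is FPKM, a read count scaled to transcript length and library size, so levels are relative within a library and can be compared between genes per length. The depths implied by the smallest steps between values were 27.6 to 45.0 M reads. Changes are differences of log2(FPKM + 0.5), AThi minus ATlo, tested with limma over the 11397 genes that averaged 1 FPKM or more, at a Benjamini-Hochberg adjusted p under 0.05. Of the ductal epithelial markers, Krt8, Krt18 and Krt19 were at 609 to 1842 FPKM in every library, Cdh1 and Muc1 at 316 to 683 and Epcam at 1.51 to 3.57, and none of these 6 passed the test. Of the other 2, Sox9 rose, from 15.7 to 20.4 FPKM in ATlo to 34.1 and 39.8 FPKM in AThi, and Krt7 fell by 0.67 on the log2 scale. The summed level of 8 immune markers was 8.79 and 14.8 FPKM in AThi and 4.37 to 4.63 in ATlo, nearly all of it Cd68, a lysosomal protein that is not limited to macrophages, which rose by 1.27. Ptprc was at most 0.05, and the sums of fibroblast and endothelial markers were at most 0.17 and 0.08 FPKM. Of 5 acinar markers, 4 were listed at 0 in all libraries and Cela1 was at 10.2 to 12.9 FPKM. Proliferation and immediate-early genes moved with the groups: 10 proliferation genes summed to 56.9 and 58.0 FPKM in AThi and 322 to 431 in ATlo, and 10 immediate-early genes to 3508 and 5480 FPKM in AThi and 1102 to 1830 in ATlo. All 10 of the first fell and all 10 of the second rose. Their part in the changes of the proteasome genes was not tested. In sorted bulk cells, fewer cells of one kind and less RNA per cell cannot be told apart.

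The comparison of AThi with ATlo asks how cells of one line with different autophagy flux differ in proteasome transcripts. All 31 subunits of the 26S proteasome that the rule took fell in AThi, with log2 fold changes of -0.97 to -0.21. Of the 13 tested helpers and alternative subunits, 4 did not pass the test. Sums and means of the 26S subunits below cover the 31 alone. They leave out the other subunits and bound cofactors of the pathway list, such as Sem1 and Adrm1, which changed by -0.57 and -0.35. Summed over the 31 transcripts, the AThi libraries held 1204 and 1168 FPKM, whereas ATlo held 1868, 1920 and 1821 FPKM. As a share of all FPKM this was 0.414% and 0.405% against 0.619%, 0.651% and 0.618%. Both AThi sums lay below all 3 ATlo sums. The median log2 fold change of the 31 was -0.74, with a range from -0.97 (Psmc4) to -0.21 (Psmb1) and an SD over genes of 0.17. The median over all genes tested was -0.03, and 7.58% of these genes had a change at or below -0.74.

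Over the 46 members tested, 41 fell, 0 rose and 5 did not pass, where limma called 29.4% of all tested genes lower and 22.2% higher. At an unadjusted p under 0.05 the count of rises was also 0. Every AThi library lay below every ATlo library in 43 of the 46, against 38.4% of all tested genes. All 31 of the 26S subunits were among these 43. The fall of 38 of the 41 held in each of the 5 fits that left out 1 library, and the exceptions were Psmb1, Psmd5 and Psme4. Members of one complex share their libraries and are not independent of each other.

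**Figure D1:**
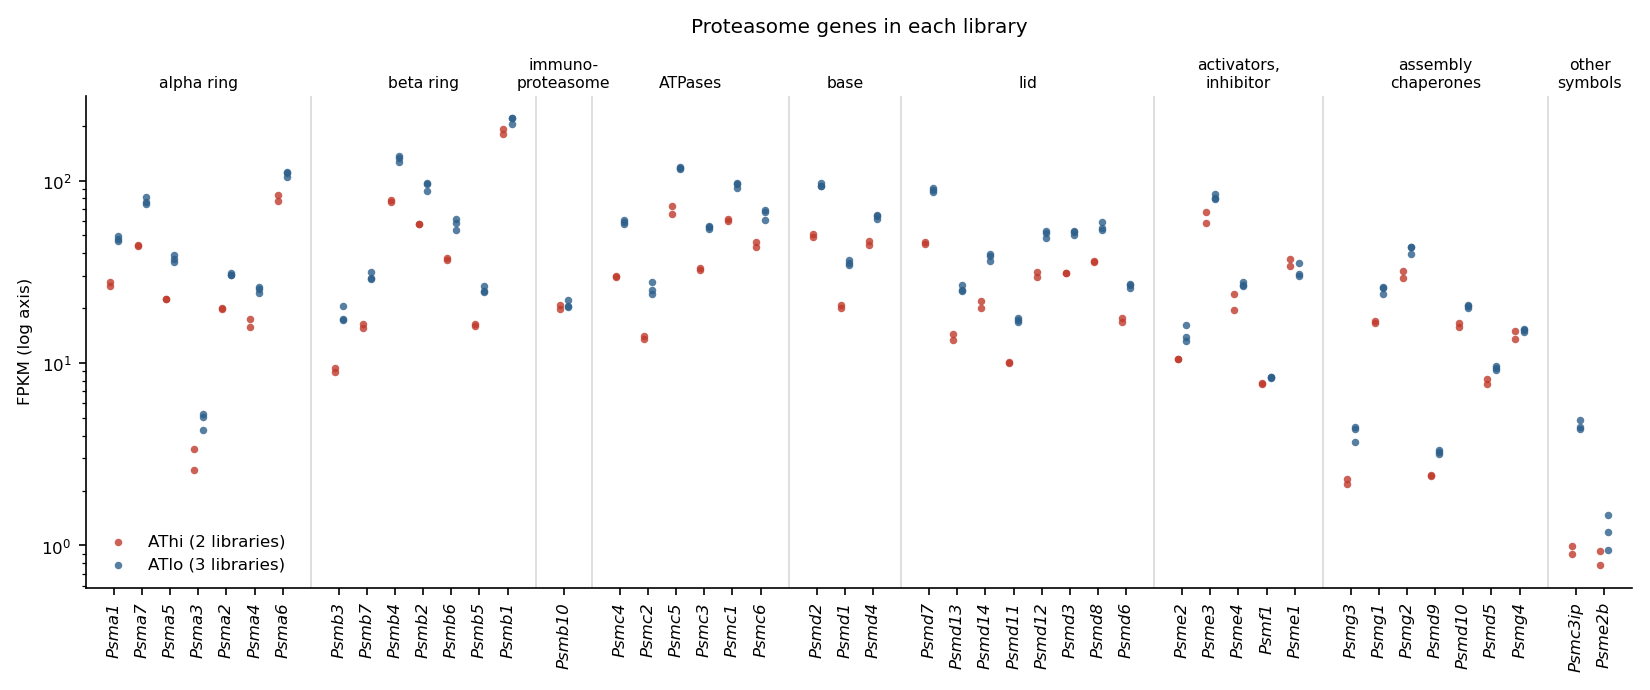
FPKM (vertical, log axis) of the 46 tested proteasome genes in each library, by role, with AThi libraries in red (2 points a gene) and ATlo libraries in blue (3 points a gene). In all 31 plotted subunits of the alpha ring, beta ring, ATPases, base and lid the AThi points lie below the ATlo points. The points of the 2 groups overlap in Psmb10, Psme1 and Psmg4.

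All 7 genes of the alpha ring, the outer ring that gates the barrel, fell, with a median of -0.64. Psma1 had the largest fall. It was at 27.9 and 26.3 FPKM in AThi and at 46.8, 48.0 and 49.4 FPKM in ATlo, a change of -0.81 ± 0.06 (SE) with an adjusted p of 0.000127. Psma6, the most abundant gene of the ring, fell least. It was at 83.8 and 77.5 FPKM in AThi against 111, 111 and 105 FPKM in ATlo, or -0.43 ± 0.07 (SE). The libraries of the 2 groups did not overlap in either gene. Psma7, Psma5, Psma2 and Psma4 changed by -0.80, -0.72, -0.61 and -0.59. Psma3 was the least abundant 26S subunit, at 3.36 and 2.58 FPKM in AThi and 4.32, 5.27 and 5.05 FPKM in ATlo, and its change of -0.64 ± 0.13 (SE) had the widest error of the 31.

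The beta ring showed the same picture: all 7 genes fell (median -0.68). Among the 3 proteolytic subunits, Psmb7 had a larger fall than Psmb5 and Psmb6, a difference that was not tested directly. Psmb5, the chymotrypsin-like subunit, was at 16.3 and 16.0 FPKM in AThi and 26.3, 24.7 and 24.6 FPKM in ATlo, or -0.63 ± 0.06 (SE). Psmb6, the caspase-like subunit, was at 37.8 and 36.8 FPKM against 61.7, 58.5 and 53.8 FPKM, or -0.63 ± 0.07 (SE). Psmb7, the trypsin-like subunit, was at 16.4 and 15.6 FPKM against 28.7, 31.6 and 29.4 FPKM, or -0.88 ± 0.07 (SE). In each of the 3 genes both AThi libraries lay below all ATlo libraries. Of the structural beta subunits, Psmb3 had the largest fall, at 8.91 and 9.34 FPKM in AThi against 17.2, 20.5 and 17.5 FPKM in ATlo, or -0.97 ± 0.09 (SE). Psmb4 and Psmb2 changed by -0.77 and -0.68.

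Psmb1, at chr17:15475021-15499751 on the minus strand (GRCm38), was the exception in the ring. It was the most abundant of all members, at 192 and 180 FPKM in AThi and 220, 220 and 205 FPKM in ATlo. Its groups did not overlap, but the change was -0.21 ± 0.07 (SE) with an adjusted p of 0.0494, just under the threshold. The call was lost in each of the 5 fits without 1 library, with adjusted p-values of 0.0562 to 0.2, and when the libraries were rescaled. Its deviation from the other subunits, given below, did not depend on these settings.

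Among the alternative core subunits, Psmb10, the trypsin-like subunit of the immunoproteasome, did not pass the test. It was at 19.8 and 20.8 FPKM in AThi and 22.01, 20.2 and 20.4 FPKM in ATlo, with a change of -0.04 ± 0.07 (SE), a 95% interval of -0.19 to 0.12 and an adjusted p of 0.659. Psma8 and Psmb11, known as the subunits of testis and thymus, were listed at 0 in all libraries. Psmb8 and Psmb9, the other immunoproteasome subunits, are outside the rule and were read from a list of pathway genes. Both rose. Psmb8 was at 2.44 and 2.85 FPKM in AThi against 1.53, 1.12 and 1.07 FPKM in ATlo, or 0.86 ± 0.15 (SE), adjusted p 0.00327. Psmb9 was at 1.27 and 1.97 FPKM against 1.08, 0.91 and 0.84 FPKM, or 0.54 ± 0.18 (SE), adjusted p 0.0403. Both levels are low. Of their exon length, 14.7% overlaps Gm20496 (Psmb8) and 5.79% overlaps Tap1 (Psmb9), each on the other strand. Whether the counting used strand is not given in the labels. The call of Psmb9 was lost without AThi replicate 2 (adjusted p 0.258), without ATlo replicate 2 (0.0914) and without ATlo replicate 3 (0.0897), over a range of 0.0219 to 0.258 in the alternatives.

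The ratio of each immunoproteasome gene to its constitutive partner was therefore higher in AThi. Psmb8 over Psmb5 was 0.15 and 0.178 in AThi and 0.0581, 0.0454 and 0.0435 in ATlo. Psmb9 over Psmb6 was 0.0336 and 0.0536 against 0.0175, 0.0156 and 0.0156. Psmb10 over Psmb7 was 1.21 and 1.34 against 0.767, 0.639 and 0.694, so the order of these FPKM values changed between the groups. Psmb7 shares 28.1% of its 50-base words with another gene and Psmb10 0%, so the order of the transcripts themselves is uncertain. In all 3 pairs the groups did not overlap. With 2 libraries against 3, a two-sided exact permutation test cannot go below 0.2, and it gave 0.2 for each of the 4 ratios computed, also after adjustment over the 4.

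**Figure D2:**
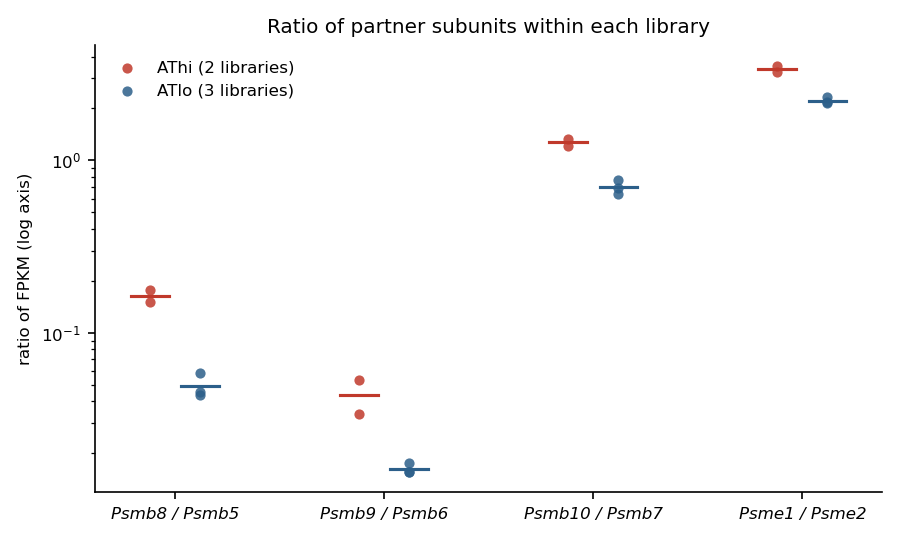
Ratio of the FPKM of 2 partner genes (vertical, log axis) within each library, for 3 immunoproteasome genes over their constitutive counterparts and for Psme1 over Psme2, with lines at the group means. The AThi points (red, 2 libraries) lie above all ATlo points (blue, 3 libraries) in each of the 4 pairs, for example at 1.21 and 1.34 against 0.639 to 0.767 for Psmb10 over Psmb7.

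All 17 genes of the 19S particle that the rule took fell, with a median of -0.75. All 17 kept the call without any 1 ATlo library. The 6 ATPases, which form the ring that unfolds substrates, had a median of -0.75. Psmc4 was at 30.1 and 29.7 FPKM in AThi against 59.0, 60.7 and 57.7 FPKM in ATlo, or -0.97 ± 0.06 (SE) and the largest fall of the 31. Psmc5, the most abundant ATPase gene, was at 72.6 and 65.7 FPKM against 117, 119 and 115 FPKM, or -0.76 ± 0.07 (SE). Psmc6 fell least, at 46.1 and 43.2 FPKM against 61.1, 68.6 and 67.3 FPKM, or -0.55 ± 0.07 (SE). Psmc2, Psmc3 and Psmc1 changed by -0.87, -0.75 and -0.63.

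In the base, Psmd2, a scaffold subunit, was the most abundant gene and had the largest fall. It was at 49.2 and 51.0 FPKM in AThi and 93.8, 96.5 and 92.9 FPKM in ATlo, or -0.91 ± 0.06 (SE). Psmd1, the other large scaffold, changed by -0.77. Psmd4, a ubiquitin receptor, fell less, at 44.2 and 46.5 FPKM against 64.3, 64.8 and 61.9 FPKM, or -0.48 ± 0.06 (SE). In the lid, Psmd7, which pairs with the deubiquitinase Psmd14, was the most abundant gene and fell most. It was at 45.1 and 46.3 FPKM against 89.2, 91.2 and 86.3 FPKM, or -0.95 ± 0.06 (SE). Psmd14 was at 21.9 and 19.9 FPKM against 36.3, 39.7 and 38.7 FPKM, or -0.86. Of the lid genes that the rule took, Psmd6 fell least, at 17.8 and 16.8 FPKM against 26.7, 27.1 and 25.7 FPKM, or -0.60 ± 0.06 (SE). The other lid genes, Psmd13, Psmd11, Psmd12, Psmd3 and Psmd8, changed by -0.86 to -0.63.

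The summed 19S level relative to the summed 20S level was 0.919 and 0.946 in AThi and 1.04, 1.07 and 1.09 in ATlo. Psmb1 alone held 180 to 220 FPKM of the 20S sum. Without it the ratio was 1.33 and 1.35 in AThi and 1.37, 1.41 and 1.43 in ATlo, so most of the gap went with this gene, though the groups still did not overlap.

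A second limma fit asked which members departed from the common fall. The mean log2 value of the 31 26S subunits was subtracted in each library, and all 11397 genes were tested again. In this fit 83.6% of all tested genes lay above the 26S mean, which itself changed by -0.71, and 4.32% lay below it. With so many genes apart from the mean, the adjustment barely changed the limma p-values, for example from 0.0402 to 0.0459 for Psmb7. It thus corrects little for looking at 31 subunits, and calls near the threshold are weak. Of the 31 subunits, 23 did not pass. Those above the mean, which fell less, were Psmb1 by 0.51 ± 0.08 (SE), adjusted p 0.000419, Psma6 by 0.28 ± 0.07 (SE) and Psmd4 by 0.23 ± 0.07 (SE). Those below it, which fell more, were Psmc4 by -0.26 ± 0.07 (SE), adjusted p 0.00607, Psmb3 by -0.25 ± 0.08 (SE), Psmd7 by -0.24 ± 0.07 (SE), Psmd2 by -0.19 ± 0.07 (SE) and Psmb7 by -0.17 ± 0.07 (SE). Psmb1, Psma6 and Psmc4 kept their call without any 1 library. Psmd7 lost it without AThi replicate 1, Psmd4 without AThi replicate 2, and Psmb3, Psmd2 and Psmb7 in 2, 3 and 4 of the 5 such fits.

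**Figure D3:**
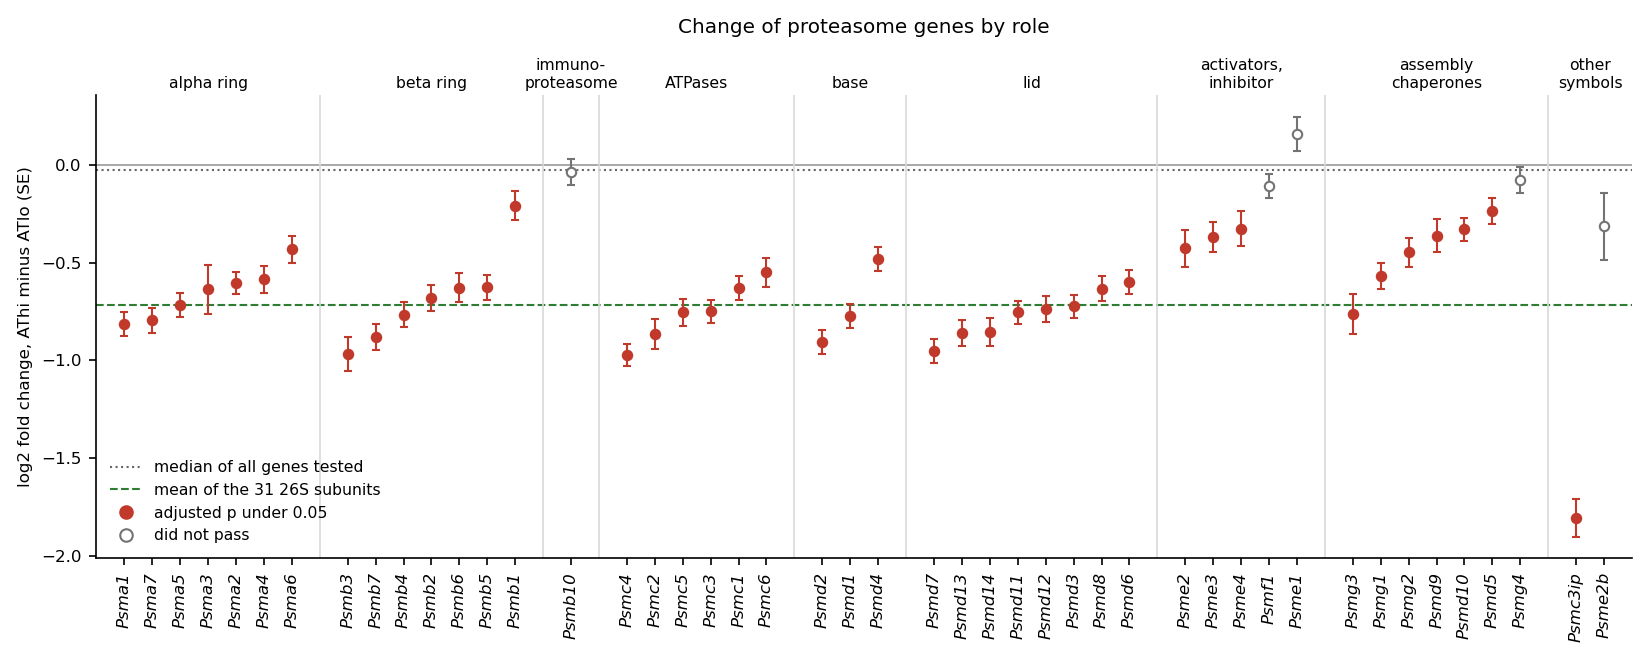
Log2 fold change of FPKM + 0.5, AThi minus ATlo, with its SE from limma, for the 46 tested members by role; filled red points passed an adjusted p of 0.05 and open grey points did not. The 31 26S subunits lie between -0.97 and -0.21 around their mean of -0.71 (dashed). Psmb10, Psmf1 and Psmg4 lie near the median of all tested genes (dotted), and Psme1 lies above it, at 0.16.

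The 7 assembly chaperones, which bind subunits during assembly and leave the finished particle, had a median of -0.36, and 6 of them fell. Of the core chaperones, Psmg3 changed by -0.77 ± 0.10 (SE), from 4.44, 3.70 and 4.36 FPKM in ATlo to 2.16 and 2.32 FPKM in AThi. Psmg3 shares 22.7% of its 50-base words with Gm26938, which overlaps 9.68% of its exon length on the same strand. Psmg1 changed by -0.57. Psmg2, the most abundant, was at 32.1 and 29.3 FPKM in AThi against 43.2, 43.3 and 39.7 FPKM in ATlo, or -0.45 ± 0.07 (SE). Psmg4 did not pass, at 15.0 and 13.6 FPKM against 15.3, 15.2 and 14.9 FPKM, with a change of -0.08 ± 0.07 (SE) and a 95% interval of -0.24 to 0.08. The chaperones of the regulatory particle, Psmd9, Psmd10 and Psmd5, changed by -0.36, -0.33 and -0.23. The call of Psmd5 was lost without AThi replicate 2 (adjusted p 0.12), ATlo replicate 2 (0.059) or ATlo replicate 3 (0.0545), over a range of 0.0203 to 0.12 in the alternatives. In the fit relative to the 26S mean, Psmg4, Psmd5, Psmd10, Psmd9 and Psmg2 lay above it, by 0.64, 0.48, 0.39, 0.35 and 0.27, and Psmg1 and Psmg3 did not pass. The call of Psmg2 there was lost without AThi replicate 1.

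The activators, caps that open the barrel without ubiquitin, did not share one change. Psme1 and Psme2 encode the partner subunits of the PA28 cap, which interferon induces. Psme1 was at 37.3 and 34.1 FPKM in AThi and 35.3, 29.96 and 30.7 FPKM in ATlo, or 0.16 ± 0.09 (SE) with an adjusted p of 0.173. Its groups overlapped, and without ATlo replicate 1 it passed, with a change of 0.23 and an adjusted p of 0.038, in a range of 0.038 to 0.523 over the alternatives. Psme2 was at 10.5 FPKM in both AThi libraries and at 16.2, 13.9 and 13.1 FPKM in ATlo, and it fell by 0.43 on the log2 scale. Psme1 over Psme2 was 3.54 and 3.24 in AThi against 2.18, 2.16 and 2.34 in ATlo. Psme2 shares 59.3% of its 50-base words with other genes, mainly Psme2b, so its level is uncertain.

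Psme3, the nuclear PA28 gamma gene and the most abundant activator, was at 66.9 and 58.4 FPKM in AThi and 79.97, 84.0 and 78.9 FPKM in ATlo, or -0.37 ± 0.08 (SE). Psme4, the gene of PA200, was at 23.8 and 19.5 FPKM against 26.9, 26.6 and 27.9 FPKM, or -0.33 ± 0.09 (SE). Its call was lost without AThi replicate 2 (change -0.19, adjusted p 0.0997) and without ATlo replicate 3 (0.0531), over a range of 0.00688 to 0.0997. Psmf1, the gene of the proteasome inhibitor PI31, did not pass, at 7.72 and 7.73 FPKM against 8.28, 8.42 and 8.43 FPKM, or -0.11 ± 0.06 (SE), with an adjusted p of 0.170. Relative to the 26S mean all 5 lay above it, by 0.87 (Psme1), 0.60 (Psmf1), 0.39 (Psme4), 0.35 (Psme3) and 0.29 (Psme2), and only the call of Psme2 was lost without a library, in 4 of 5 such fits. Psmb10 lay above it by 0.68. In all, 11 of the 13 tested genes outside the 26S particle lay above its mean change, 9 of them without any 1 library, and 0 lay below it. Since 83.6% of all tested genes also lay above it, this count does not set them apart.

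The remaining symbols include the largest fall of the 46. Psmc3ip, a meiotic and homologous recombination factor, was at 0.90 and 0.99 FPKM in AThi and at 4.45, 4.36 and 4.86 FPKM in ATlo, or -1.81 ± 0.10 (SE). It is no proteasome subunit, and 21.2% of its exon length overlaps Mlx on the other strand. Psme2b was at 0.78 and 0.93 FPKM against 0.94, 1.46 and 1.19 FPKM and did not pass. It lay just inside the filter, with a mean of 1.06 FPKM. The pseudogenes Psmb5-ps and Psmb6-ps2 were listed at 0 throughout, and Psmb6-ps and Psmb7-ps2 were at most 0.03 and 0.05 FPKM.

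Transcript levels differed widely between subunits that enter the complex in equal numbers. Over all libraries the 14 core subunits ranged from 4.12 FPKM (Psma3) to 204 FPKM (Psmb1). The 17 subunits of the 19S particle that the rule took ranged from 14.4 FPKM (Psmd11) to 97.8 FPKM (Psmc5). Reads from a stretch that a gene shares with another gene or pseudogene cannot be told apart by sequence. The share of 50-base words of each transcript that also occur in annotated transcripts of other genes was therefore counted. It was 57.1% for Psmb5, 55.8% for Psmb3, 55.4% for Psma5, 31.5% for Psma4, 28.1% for Psmb7 and 22.02% for Psma3, and under 4% for the other 8 core subunits. These 6 had mean levels of 4.12 to 31.3 FPKM and the other 8 of 26.3 to 204 FPKM. Their median changes were -0.68 and -0.65. In the 19S particle the levels did not follow this order, with a median of 48.8 FPKM for the 4 subunits with at least 10% shared words and 46.2 FPKM for the other 13. Whether lost reads set the lower levels was not tested. The words of Psmb7 are shared with Nek6, which overlaps it on the other strand, and although the library kit keeps strand, whether the counting used it is not given in the labels.

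**Figure D4:**
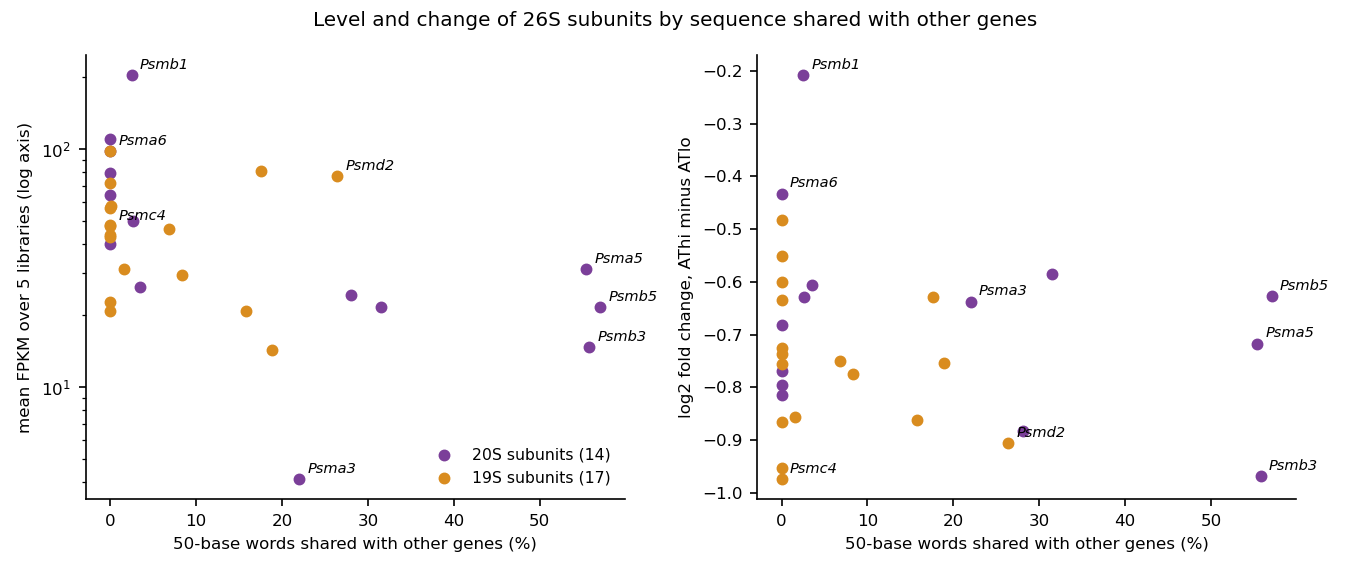
Mean FPKM over 5 libraries (left, log axis) and log2 fold change, AThi minus ATlo (right), of the 31 26S subunits against the percentage of their 50-base words that occur in transcripts of other genes; purple, 14 core subunits; orange, 17 subunits of the 19S particle. The 6 core subunits with at least 10% shared words have levels of 4.12 to 31.3 FPKM and changes of -0.97 to -0.59; the other 8 have levels of 26.3 to 204 FPKM and changes of -0.81 to -0.21.

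Of 42 other genes of the pathway, 41 had a row and were tested: 21 fell, 9 rose and 11 did not pass, against 29.4% and 22.2% of all tested genes. The median was -0.20. Among the remaining subunits and bound cofactors, 6 of 9 fell. Uchl5, a deubiquitinase of the cap, was at 8.09 and 6.30 FPKM in AThi and 11.5, 12.4 and 12.7 FPKM in ATlo, or -0.73 ± 0.11 (SE). Sem1, a small lid subunit, and Usp14, the other bound deubiquitinase, changed by -0.57 and -0.63. Adrm1 changed by -0.35, and its call was lost in some settings, such as without ATlo replicate 2 or without ATlo replicate 3. Zfand2a, a stress-induced proteasome-binding protein, was the largest rise there, at 14.2 and 19.9 FPKM against 9.43, 12.8 and 9.95 FPKM, or 0.64 ± 0.17 (SE). Its call was lost without AThi replicate 2 or ATlo replicate 1, with adjusted p-values of 0.000364 to 0.123 over the alternatives. Pomp, the core assembly factor, was at 10.93 and 10.98 FPKM against 16.4, 16.9 and 15.9 FPKM, or -0.56 ± 0.06 (SE).

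Of 8 genes of transcriptional control, 3 fell (Nfe2l2, Keap1 and Ngly1) and 3 rose. Each of the 3 falls was lost without AThi replicate 2, and those of Nfe2l2 and Keap1 in all 5 fits without a library. Nfe2l1 was at 84.3 and 83.5 FPKM in AThi and 77.3, 71.6 and 69.8 FPKM in ATlo. The rise of 0.20 ± 0.07 (SE) had an adjusted p of 0.0423 and passed in only 1 of the 5 fits without a library, with values of 0.0171 to 0.141 over the alternatives. Ddi2, the protease that activates NFE2L1, did not pass, at 7.77 and 7.69 FPKM against 5.54, 6.67 and 7.02 FPKM (adjusted p 0.0727). It passed without ATlo replicate 3 (0.0438), in a range of 0.0198 to 0.207 over the alternatives. Of the small MAF partners, Maff was at 35.9 and 54.0 FPKM against 19.3, 22.1 and 17.7 FPKM, or 1.15 ± 0.17 (SE), and Mafk rose by 0.79. Ngly1, the deglycosylase that acts on NFE2L1, fell by 0.30 on the log2 scale; its adjusted p was 0.0508 without AThi replicate 2, in a range of 0.00876 to 0.0508.

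Of 14 shuttle and segregase genes, 9 fell and 1 rose. Midn, the gene of midnolin, which delivers proteins to the proteasome without ubiquitin, rose, at 47.8 and 64.0 FPKM against 29.8, 30.3 and 29.2 FPKM, or 0.88 ± 0.12 (SE). Among 6 genes of ubiquitin supply, 2 fell, 1 rose and 3 did not pass. Rps27a, at a low 3.24 and 2.79 FPKM in AThi and 4.73, 4.20 and 5.40 FPKM in ATlo, fell by 0.58 on the log2 scale. The sequence that it shares with other genes was not counted.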

How the data were processed

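RNA sequencing values of 5 libraries (2 AThi, 3 ATlo) were used. The authors deposited FPKM rounded to 2 decimals in 1 table. Per the submitters' processing notes, DESeq2, STAR, featureCounts and bcl2fastq were used (no versions or roles named), with GRCm38 or mm10 as build; annotation, strand setting and FPKM formula: not given in the sources used here. The kit was stranded, per the labels' protocols. Of 52459 rows, 24118 were above 0 in a library. Implied depth came from single-exon genes of up to 200 nucleotides, in which the product of FPKM and length gave whole reads (tolerance 0.1).

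The 11397 genes averaging 1 FPKM or more were fitted with limma 3.58.1 in R 4.3.3 (eBayes with trend, two-sided, Benjamini-Hochberg over all genes tested) on log2(FPKM + 0.5), which understates changes of low genes. The fit has 3 residual and 3.89 prior degrees of freedom, and it was tested on simulated data. Exact permutation tests used SciPy 1.17.1. Coordinates and 50-base words came from GENCODE M21 (GRCm38), promoters from RefSeq (GRCm38.p6). Paaf1, of the pathway list, had no row.

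Named were, in each role, the lowest, highest and most abundant member, those not passing or apart from the 26S mean, all rows without a role or untested, and in the pathway list Psmb8, Psmb9, Nfe2l1, Ddi2, Pomp and the largest change each way by role. Some genes that this rule names are not reported here. Other genes given only by their change, and Psmb5 and Psmd14, were added after their values were seen. The members and lists were chosen with earlier results of these data known. Alternatives changed the pseudocount, filter, scaling, moderation, threshold, replicate block and libraries.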

Additional observations from a re-analysis of the deposited data

How the results depend on the processing

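Under the 15 alternatives 0 of the changes of tested members turned direction. Of the 41 falls, 38 held at an adjusted p under 0.05 in every refit that tested them, and Psmb1, Psmd5 and Psme4 were the exceptions. At an adjusted p under 0.01, 37 held, and Psmd9 was lost as well. The count of members lower in AThi and the count apart from the 26S mean stayed within 1.5 times of 41 and 20, and the median change of the tested members within 1 SD between libraries (0.0576), in all alternatives. Psmb1 also missed the threshold with no filter (adjusted p 0.117), as TPM (0.0758), with median ratio scaling (0.0846) and without the trend (0.0552), where 30 of the 31 26S subunits still passed. At an adjusted p under 0.01, limma called 3884 genes in place of 5884, and 3 pathway genes higher in place of 9. With no filter 3 pathway genes were higher, and in the fits without 1 library 4 (without AThi replicate 2) to 8; the cause was not tested. The count of members higher was 0 or, without ATlo replicate 1, 1 (Psme1). The libraries of both groups share the replicate numbers 1 and 2, and the codes in their titles begin alike, but the labels do not say what a number or code stands for. Deviations from the group means correlated across genes with r of 0.20 between the replicates 1 and 0.30 between the replicates 2. With 2 AThi libraries these deviations are mirror images. AThi replicate 2 with ATlo replicate 1 therefore gave -0.20, and AThi replicate 1 with ATlo replicate 2 gave -0.30. The 2 values are not independent, so they cannot show whether a number marks a shared batch. With the replicate block, all 31 26S subunits remained lower and 41 members were lower in all. With that block 17 members lay apart from the 26S mean, now with Psme2b but without Psmd4, Psmd2, Psmb7 and Psme2. In the pathway list Ddi2 (adjusted p 0.0198) and Ubxn1 (0.0277) then passed, and Psmb9 (0.0538), Nfe2l1 (0.101), Nfe2l2 (0.0547), Keap1 (0.0662) and Ubqln4 (0.0615) did not. Leaving out a library that leaves 1 in AThi assumes that it varies like the others. Low genes rest on few reads: Psmg3 had an implied 172 to 542 reads.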
